A study of Mus musculus with 64 samples.

Results

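The synaptonemal complex genes Sycp1, Sycp2, Sycp3, Syce1, Syce2 and Tex12 and the meiotic cohesin genes Smc1b, Rec8 and Stag3 were followed through all 47 RNA-seq libraries of the study, 20 from sorted male germ cells and 27 from whole testis. The 9 genes were taken by their symbols from the 26385 genes listed in each library's table, of which 23552 had a read in some library. Each of the 9 had reads in all 47 libraries and was kept by the filter on low counts in every comparison. All 9 fell in whole testis of Morc1 tg/tg mice at P10.5 and P14.5 and of Dnmt3l-/- mice at P10.5. Of all genes tested, 9.26%, 20.1% and 29.0% were called lower there, in that order. With library sizes set to germ cell genes, 8 of the 9 remained lower in Morc1 tg/tg at P10.5 (1.3% of all genes). At P14.5 and in Dnmt3l-/- 3 remained lower (2.65% and 1.98% of all genes). Rec8 was called higher in both, where 90.9% and 91.3% of all genes were. In sorted Morc1 tg/tg germ cells at P10.5, 5 of the 9 fell, against 5.79% of all genes. None passed the test at the 3 earlier stages of sorted tg/tg cells, where at most 0.421% of all genes were called. Those stages had fewer libraries, E18.5 and P2.5 also fewer reads, and the mutant effect was not tested between stages. In the libraries labelled Miwi2-/- none passed the main test, where 1.23% of all genes were called. With a replicate block some passed, in both directions, but the share of all genes in that fit is not given here. Scaled to germ cell genes 6 were called lower there, against 54.8% of all genes.

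The synaptonemal complex is the protein zipper that joins homologous chromosomes along their length during meiotic prophase. SYCP2 and SYCP3 build the axial (later lateral) elements along each chromosome, SYCP1 forms the transverse filaments between them, and SYCE1, SYCE2 and TEX12 belong to the central element where filaments from both sides meet. The axes are laid down on cohesin rings, and in meiosis SMC1B takes the place of an SMC subunit, REC8 that of the kleisin RAD21, and STAG3 that of STAG1 or STAG2. Mice that lack these proteins fail in synapsis or in chromosome cohesion, and the males lose their spermatocytes.

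Morc1 encodes a GHKL ATPase of germ cells, and the Morc1 tg allele is a tyrosinase transgene inserted in the gene on the FVB/N background, which removed early exons. Germ cells of E16.5, E18.5 and P2.5 were sorted as GFP-positive cells after crossing the allele into the Oct4-IRES-eGfp reporter, a mixed background. At P10.5 germ cells were gated without the reporter, as cells of low side scatter, high EPCAM and no MHCI. Sorted Morc1 tg/+ against tg/tg libraries numbered 2 and 2 at E16.5, the same at E18.5, then 3 and 2 at P2.5 and 4 and 3 at P10.5. Whole testis of the Morc1 line came from 2 Morc1 tg/+, 1 Morc1 +/+ and 3 tg/tg mice at P10.5, with 1 further library of each control genotype labelled preliminary, and from 3 tg/+ and 3 tg/tg mice at P14.5. The other P10.5 whole testis libraries were of 3 Dnmt3l+/+, 3 Dnmt3l+/- and 3 Dnmt3l-/- mice, which lack the cofactor of de novo DNA methylation, and of 2 Miwi2+/- and 2 mice labelled Miwi2-/- (Piwil4, a nuclear piRNA-binding protein). Each library held the RNA of 1 mouse. In the first wave of mouse spermatogenesis, germ cells advance through meiotic prophase between the last ages sampled.

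The upstream sequences of 5 of the genes are shown because they cover the cases found among the 9: a CACGTG E-box in those of Sycp1, Sycp3 and Stag3, the octamer TCTCGCGA in those of Sycp1, Smc1b and Stag3, and neither in that of Sycp2. Each is the RefSeq window of 250 bases before to 50 after a transcript's start, printed 5′ to 3′ on the gene's strand and placed in mm9 by an exact match. Capitals mark CACGTG, TCTCGCGA (on either strand, where overlapping matches merge) and GCGGGA (the core of an E2F site, written TCCCGC where it lies on the other strand).
Sycp1 (chr3:102739974-102740273, minus strand): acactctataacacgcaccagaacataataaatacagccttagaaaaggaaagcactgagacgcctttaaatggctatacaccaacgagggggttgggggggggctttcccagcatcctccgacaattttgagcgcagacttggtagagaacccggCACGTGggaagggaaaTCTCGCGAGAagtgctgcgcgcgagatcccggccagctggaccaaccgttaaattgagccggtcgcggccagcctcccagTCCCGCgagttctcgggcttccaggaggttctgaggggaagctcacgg
Sycp3 (chr10:87922082-87922381, plus strand): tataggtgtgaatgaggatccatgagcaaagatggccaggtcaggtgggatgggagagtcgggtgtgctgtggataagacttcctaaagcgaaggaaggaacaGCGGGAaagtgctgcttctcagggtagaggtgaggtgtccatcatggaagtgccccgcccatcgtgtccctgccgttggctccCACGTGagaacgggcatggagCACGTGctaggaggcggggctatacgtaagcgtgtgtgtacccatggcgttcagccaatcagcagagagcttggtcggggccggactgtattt
Sycp2 (chr2:178142314-178142613, minus strand): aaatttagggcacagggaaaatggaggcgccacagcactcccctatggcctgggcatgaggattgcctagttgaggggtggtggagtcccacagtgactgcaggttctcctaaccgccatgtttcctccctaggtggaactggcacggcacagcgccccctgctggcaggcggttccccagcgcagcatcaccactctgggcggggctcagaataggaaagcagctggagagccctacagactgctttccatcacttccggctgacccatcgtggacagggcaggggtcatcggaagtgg
Smc1b (chr15:84962338-84962637, minus strand): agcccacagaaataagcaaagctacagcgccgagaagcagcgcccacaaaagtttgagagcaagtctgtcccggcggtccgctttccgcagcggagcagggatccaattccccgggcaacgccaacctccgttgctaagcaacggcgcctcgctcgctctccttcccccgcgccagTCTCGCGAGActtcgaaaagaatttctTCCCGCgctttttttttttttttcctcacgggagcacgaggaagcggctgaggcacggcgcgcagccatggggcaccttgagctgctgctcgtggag
Stag3 (chr5:138721487-138721786, plus strand): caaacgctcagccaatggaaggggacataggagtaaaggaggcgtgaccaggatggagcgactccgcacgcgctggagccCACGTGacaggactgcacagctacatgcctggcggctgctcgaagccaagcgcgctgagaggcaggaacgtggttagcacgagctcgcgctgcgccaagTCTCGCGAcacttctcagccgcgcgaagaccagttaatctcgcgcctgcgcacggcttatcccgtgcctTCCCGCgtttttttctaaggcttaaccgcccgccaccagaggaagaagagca

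The motifs were chosen after the sequences had been read, so their counts are descriptions and a match is not a binding site. CACGTG was present near 5 of the 9 genes, namely Sycp1 (94 bases before the start), Sycp3 (64 and 43 before), Syce2 (88 before the start of its second window), Tex12 (93 before) and Stag3 (170 before). Over all 32851 RefSeq windows of the same length, 7.15% held it. GCGGGA on either strand was near 7 of the 9, all but Sycp2 and Syce1, against 20.0% of all windows. TCTCGCGA was near Sycp1, Smc1b and Stag3, against 0.995% of all windows, and in Sycp1 and Smc1b it occurred as an overlapping pair, once on each strand. The windows of the 9 genes held a median of 20 CpG dinucleotides (10 in Sycp2 to 33 in the second Syce2 window), against a median of 7 over all windows. Each motif holds a CpG itself, and the shares over all windows were not matched for CpG content. Stag3 and Rec8 start 269 and 129 bases inside the gene span of the count tables in RefSeq, and the other starts lie within 27 bases of that span's end, apart from the second Syce2 start at 147.

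**Figure D1:**
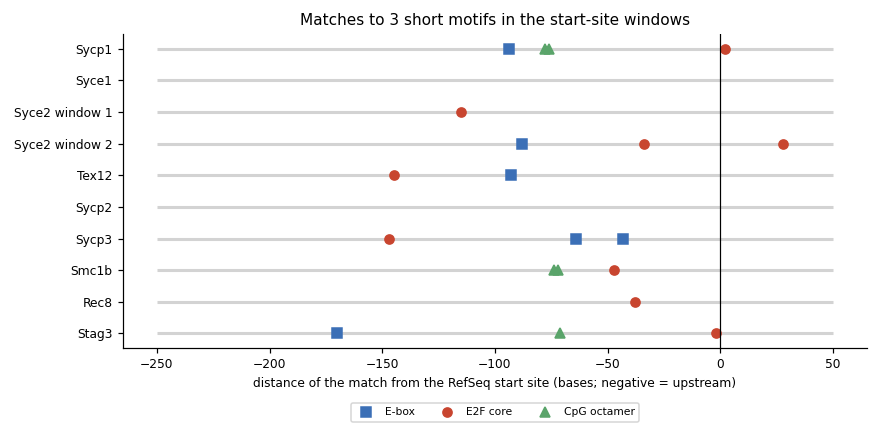
Positions of the 3 motifs (colour and shape of the markers) in the RefSeq window of each gene, as distance in bases from the transcript's start, with 1 line per window and 2 for Syce2. The E-box lies 43 to 170 bases before the start in the 5 genes that have one, and Sycp2 and Syce1 have none of the 3.

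Reads counted on genes ran from 2413679 to 14918478 per library in sorted cells (median 7542692) and from 22509570 to 42137954 in whole testis (median 28815956). Within each group, every pair of libraries differed by more than the sampling noise of its counts. The targeted genes were read first. Morc1 was at 8.15 to 52.9 RPKM in sorted tg/+ cells and at 2.38 to 11.2 in tg/tg cells, lower in tg/tg at each stage, and its remaining reads do not say what protein is left. Dnmt3l was at 0.374 to 1.02 RPKM in its controls and at 0.0371 to 0.0464 in Dnmt3l-/- testis. Piwil4 was not lower in the libraries labelled as its mutant, at 6.65 and 7.01 RPKM in Miwi2+/- and at 10.7 and 11.6 in the libraries labelled Miwi2-/-. Its log2 fold change was 0.69 ± 0.07 (edgeR adjusted p = 0.00075), and since a mutant allele need not lower the counted transcript, this gene did not check the label, on which every direction drawn from these libraries rests. Sycp3 shares 660 of its 1264 annotated exon bases (52.2%) with Chpt1, a phospholipid synthesis gene on the opposite strand, and reads in the shared bases cannot be told apart without strand. The whole testis kit (TruSeq v2) does not mark strand. Reads were counted by HTSeq at its default settings, and to which gene reads in the shared bases went was not checked here. The part of Chpt1 reads in the Sycp3 values was not tested. The other 8 share no exon with another gene.

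Across control germ cells, the 9 genes did not follow 1 course between E16.5 and P10.5. Genes of the filaments and of the central element other than Tex12 rose after birth, and Smc1b peaked at P2.5. Tex12, Stag3 and Rec8 had their highest means at E16.5, where the Tex12 libraries overlapped those of P2.5. Rec8 was the lowest of the 9 at P2.5 and P10.5. Levels are the deposited RPKM (reads scaled to the length of a gene's exons and to all mapped reads of its library), which allows genes to be compared. The level of Sycp3, and so its rank, is less certain, since how reads in the bases shared with Chpt1 were counted was not checked. Steps between stages were tested with edgeR on the counts of the 11 Morc1 tg/+ libraries, with p-values adjusted over all genes.

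Sycp1 stood at 15.2 and 16.4 RPKM in the E16.5 tg/+ libraries, 21.1 and 19.8 at E18.5, 32.5, 37.4 and 48.9 at P2.5 and 66.4, 63.4, 57.2 and 58.6 at P10.5. The P2.5 libraries all lay above the embryonic ones, and the P10.5 libraries above those. The log2 fold change was 0.76 ± 0.14 from E18.5 to P2.5 (adjusted p = 0.00044) and 0.92 ± 0.11 from P2.5 to P10.5 (adjusted p = 2.2e-05). Syce1, the SYCP1 partner in the central element, read 13.3 and 15.7 RPKM at E16.5, then 10.6 and 15.0 at E18.5, 27.005, 20.9 and 30.4 at P2.5 and 37.8, 35.4, 33.6 and 36.4 at P10.5. Both postnatal steps passed the test, by 0.81 ± 0.22 (adjusted p = 0.008) and 0.75 ± 0.17 (adjusted p = 0.0043) on the log2 scale. Syce2, which pairs with TEX12, was in addition called higher from E16.5 to E18.5, but not when only the libraries of both stages were fitted. No test compared the genes with each other.

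Syce2 was at 4.96 and 7.93 RPKM at E16.5, then 16.46 and 9.71 at E18.5, 23.1, 34.0 and 35.3 at P2.5 and 25.8, 21.8, 23.1 and 24.6 at P10.5. It rose 2.04-fold from E16.5 to E18.5 (log2 fold change 1.03 ± 0.25, adjusted p = 0.0078) and again 2.11-fold to P2.5 (1.08 ± 0.23, adjusted p = 0.0016), and its P2.5 and P10.5 libraries overlapped. Tex12, the SYCE2 partner, did not rise. It read 96.0 and 98.2 RPKM at E16.5, then 83.3 and 91.4 at E18.5, 77.7, 75.2 and 98.2 at P2.5 and 40.4, 44.9, 40.4 and 49.2 at P10.5, where all 4 libraries lay below every earlier one. The fall from P2.5 to P10.5 was 1.57-fold (log2 fold change -0.65 ± 0.15, adjusted p = 0.0037).

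Of the axial genes, Sycp2 passed the test in the last step alone. Its values were 19.9 and 15.4 RPKM at E16.5, then 17.4 and 20.5 at E18.5, 20.4, 21.6 and 18.2 at P2.5 and 37.2, 36.6, 34.7 and 33.3 at P10.5. From P2.5 to P10.5 it rose 2.14-fold (log2 fold change 1.10 ± 0.15, adjusted p = 5.2e-05), the largest rise among the 9 in that step, and all 4 P10.5 libraries lay above every earlier one. Sycp3, its partner in the axis, was at 10.3 and 14.8 RPKM at E16.5, then 30.3 and 19.0 at E18.5, 17.6, 20.5 and 18.2 at P2.5 and 27.6, 24.0, 25.9 and 23.5 at P10.5. It rose from E16.5 to E18.5 (0.98 ± 0.23, adjusted p = 0.0068), did not pass in the step to P2.5 (-0.55 ± 0.21, adjusted p = 0.05), and rose again to P10.5 (0.70 ± 0.18, adjusted p = 0.0081). Its antisense neighbour Chpt1 rose between E18.5 and P2.5 (log2 fold change 0.84, adjusted p = 0.033).

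Among the cohesin genes, Smc1b had the largest single step of the 9 from E18.5 to P2.5. It read 18.2 and 28.7 RPKM at E16.5, then 37.6 and 28.5 at E18.5, 88.8, 106 and 105 at P2.5 and 66.1, 64.7, 56.9 and 55.6 at P10.5. It rose 2.68-fold to P2.5 (log2 fold change 1.42 ± 0.14, adjusted p = 2.3e-06) after a smaller rise to E18.5 (0.52 ± 0.15, adjusted p = 0.025), and then fell to P10.5 (-0.43 ± 0.11, adjusted p = 0.0093). Stag3 was high from the start, at 78.1 and 99.8 RPKM at E16.5, then 57.3 and 46.9 at E18.5, 59.0, 50.6 and 53.2 at P2.5 and 57.6, 49.3, 57.5 and 53.8 at P10.5. It fell from E16.5 to E18.5 (log2 fold change -0.75 ± 0.12, adjusted p = 0.00044) and rose slightly from P2.5 to P10.5 (0.29 ± 0.09, adjusted p = 0.033).

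Rec8, the meiotic kleisin, read 11.7 and 14.47 RPKM at E16.5, then 13.5 and 1.56 at E18.5, 2.26, 5.89 and 3.05 at P2.5 and 6.30, 5.54, 3.84 and 5.33 at P10.5. The E18.5 libraries differed widely, 1 as high as at E16.5 and the other below every P2.5 library. No step of Rec8 passed the test, with log2 fold changes of -0.86 ± 0.59, -1.07 ± 0.56 and 0.73 ± 0.47 in order. Without E18.5 tg/+ replicate 1 the first step came to -2.94, and without replicate 2 the step to P2.5 came to -1.87. Each of these fits left 1 library at E18.5.

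Counted over the 9, 3 rose and 1 fell from E16.5 to E18.5, where 18.7% of all 16890 genes tested were called (8.13% higher). From E18.5 to P2.5, 4 rose and none fell, against 39.1% called (18.1% higher and 21.0% lower), and from P2.5 to P10.5, 5 rose and 2 fell, against 27.6% called (13.4% higher and 14.2% lower). These counts moved with single libraries, and leaving out an E16.5 or E18.5 library left 1 at that stage. With only the libraries of both stages in the fit, or without E16.5 tg/+ replicate 1, Stag3 alone was called, and without E18.5 tg/+ replicate 1 Sycp3 rose while Stag3 and Rec8 fell. Without E18.5 replicate 2, the count from E18.5 to P2.5 grew to 6 with falls of Rec8 and Sycp3, and without P2.5 replicate 2, Smc1b and Stag3 lost their calls to P10.5. Summed Sertoli cell markers (9 genes) were at 13.7 to 34.5 RPKM in tg/+ cells at E16.5 and E18.5, 22.2 to 23.1 at P2.5 and 33.0 to 52.8 at P10.5, far below whole testis (760.1 to 1889 RPKM). Leydig cell markers were at 1.13 to 6.94 RPKM, with Insl3 at 0 in all E18.5, P2.5 and P10.5 tg/+ libraries. Summed peritubular cell markers went from 9.53 to 11.47 RPKM at E16.5 and E18.5 to 2.05 to 2.34 at P2.5 and 0.452 to 1.33 at P10.5, and blood markers from 5.65 to 27.4 RPKM before birth to at most 4.05 after it. The germ cell list summed to 742.7 to 1271 RPKM before birth, 651.9 to 887.5 at P2.5 and 449.8 to 540 at P10.5. Markers of undifferentiated spermatogonia went from 188.1 to 267.7 RPKM before birth to 401.5 to 503.8 at P2.5 and 173 to 191 at P10.5 (8 of 11 lower in that step), and those of differentiating spermatogonia from 27.9 to 65.7 to 77.4 to 94.4 and to 134 to 162 (3 of 5 higher and 1 lower in that step). The part of these in the steps between stages was not tested. The sort changed between P2.5 and P10.5, so that for this step gate, background and age cannot be told apart.

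**Figure D2:**
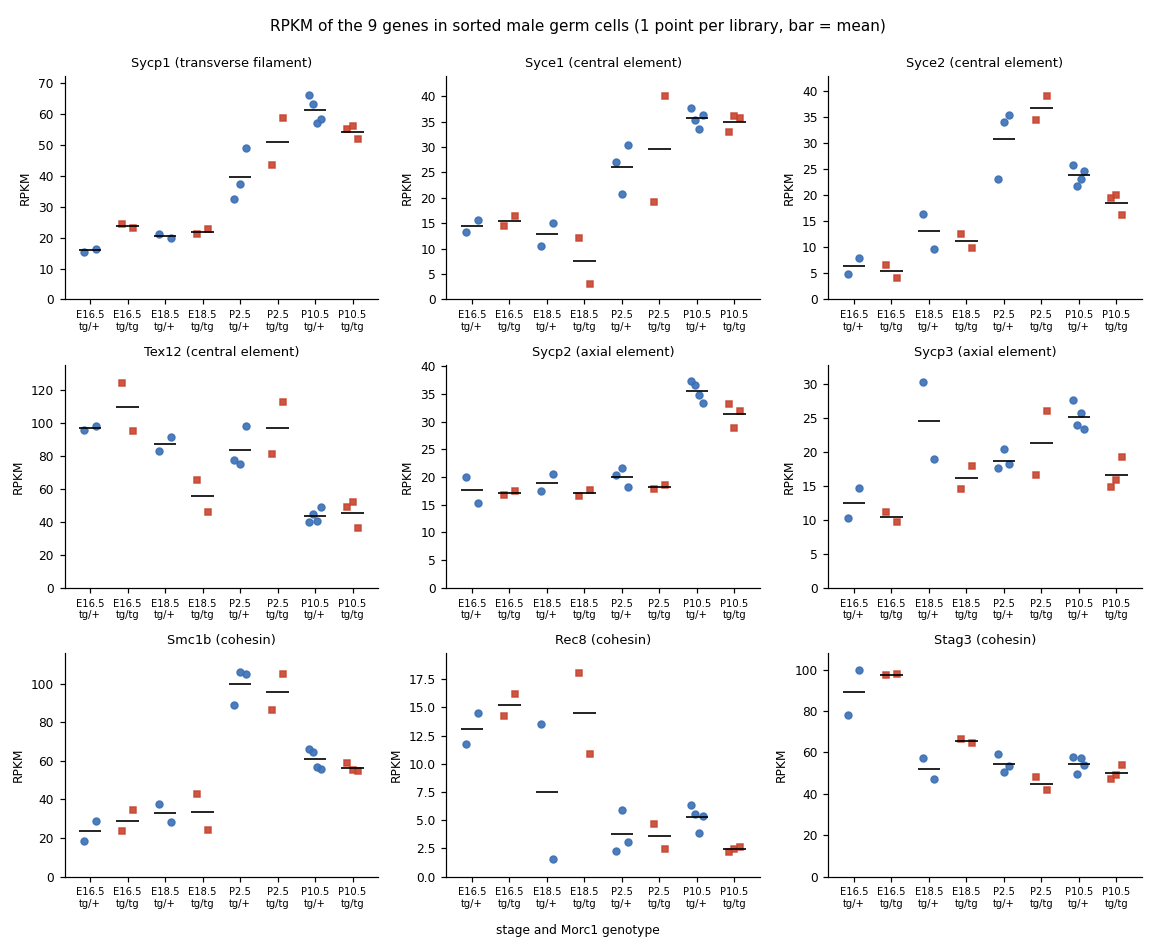
RPKM of each gene (1 panel each, axis from 0) in the sorted germ cell libraries, by stage and Morc1 genotype (blue circles tg/+, red squares tg/tg), with 1 point per library and a bar at the mean. Sycp1 climbs from 15.2 to 66.4 RPKM in tg/+ cells, Tex12 drops to 40.4 to 49.2 at P10.5, and at P10.5 all tg/tg libraries of Rec8 and of Sycp3 lie below all tg/+ libraries.

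In order of level, E16.5 tg/+ cells had Tex12 and Stag3 first (means of 97.1 and 89.0 RPKM), not separated by their libraries, and well above Smc1b, Sycp2, Sycp1, Syce1, Rec8 and Sycp3, whose neighbours all overlapped, with Syce2 last. At P2.5 Smc1b and Tex12 led without separation, then Stag3, then Sycp1, Syce2, Syce1, Sycp2 and Sycp3 with overlapping neighbours, and Rec8 below them all. By P10.5 Sycp1, Smc1b and Stag3 overlapped at the top (means of 61.4, 60.8 and 54.6 RPKM), followed by Tex12, by Syce1 with Sycp2, by Sycp3 with Syce2, and by Rec8 at 5.25 RPKM. Over the 4 stages the highest mean was 4.78 times the lowest for Syce2, 4.25 for Smc1b and 3.88 for Sycp1, and 1.71 for Stag3.

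The other genes of the pathway were read in the same steps. Of 7 other synaptonemal complex and axis genes, 2 fell from E16.5 to E18.5 (Fkbp6 with a log2 fold change of -1.39, and 4930447C04Rik, the gene now named Six6os1, with -0.90). In the next step 3 rose, led by Trip13 (2.17), the ATPase that remodels axis proteins, and Hormad2 (1.41). From P2.5 to P10.5, 1 rose and 3 fell, among them Hormad1 (-0.75). Of 22 meiotic recombination genes 2 rose and 4 fell in the first step, 9 rose and 2 fell in the next, and 5 rose and 2 fell in the last. Prdm9, which sets the sites of recombination, went up by 1.59, down (-2.61) and up by 2.98. Of 7 meiotic entry genes 1 rose in the first step (Dazl, 0.72), 1 rose and 2 fell in the next, where Stra8, needed to enter meiosis, was at 2.08, Rarg, a retinoic acid receptor, at -2.17 and Ccnb3 at -0.65, and 4 rose in the last, led by Gm1564 (1.76) and Rarg (1.73). Of the 14 mitotic or shared cohesin genes 1 rose and 2 fell in the first step (Smc3, -0.87, and Stag1, -0.63), 5 rose and 4 fell in the next, with Sgol2, a protector of cohesin, at 1.44, and 2 rose and 1 fell in the last (Esco1, 0.91, and Rad21, -0.56). Stag2, a mitotic counterpart of Stag3, turned at each step, with 0.63, -1.40 and 0.52.

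Before P10.5 none of the 9 genes passed the test in sorted tg/tg cells. Of all genes tested 0.421% were called at E16.5 (0.385% higher and 0.0361% lower), 0.0416% at E18.5 (all higher) and 0.0486% at P2.5 (0.0416% higher and 0.00694% lower). At an unadjusted p under 0.05 the members numbered 1, 1 and 0, and all genes 1447, 895 and 698, and DESeq2 called 1, 0 and 0 of the 9. At E16.5, Sycp1 read 24.4 and 23.1 RPKM in tg/tg against 15.2 and 16.4 in tg/+, without overlap. Its log2 fold change was 0.50 ± 0.12 (edgeR adjusted p = 0.06), and it was called by DESeq2 (0.51, adjusted p = 0.015) and without the filter on low counts (0.50, adjusted p = 0.013). Without tg/tg replicate 2, which left 1 tg/tg library, Sycp1 was at 0.53. The other 8 lay within 0.32 of 0 at that stage. Blood markers summed to 32.9 to 34.7 RPKM in E16.5 tg/tg against 5.65 to 18.6 in tg/+, with 1 of 4 called higher, and their part in the result was not tested.

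At E18.5 the log2 fold changes ran from -0.75 for Syce1 to 1.12 for Rec8, with wide errors (standard errors of 0.62 and 0.71). Syce1 was at 12.1 and 3.05 RPKM in tg/tg against 10.6 and 15.0, and Rec8 at 18.0 and 10.9 against 13.5 and 1.56. Each spread came from 1 low library, and without tg/+ replicate 1 only the low one was left, which gave Rec8 a log2 fold change of 3.18. Stag3 read 66.6 and 64.6 RPKM in tg/tg and 57.3 and 46.9 in tg/+ (0.46 ± 0.16, adjusted p = 0.7). At P2.5 the range was -0.30 (Stag3) to 0.35 (Sycp1), and no gene of the pathway lists passed at any of these 3 stages. Every library of E18.5 and P2.5 held fewer reads than any sorted library of P10.5. The standard error of Rec8 was 0.71 at E18.5 and 0.61 at P2.5, against 0.15 at E16.5 and 0.19 at P10.5. The mutant effect was not tested between stages of sorted cells, so these counts do not say at which stage it began.

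At P10.5, sorted Morc1 tg/tg cells had lower levels of Rec8, Sycp3, Syce2, Sycp2 and Sycp1, and none of the 9 rose. Of 14019 genes tested 12.2% were called, 6.43% higher and 5.79% lower. Rec8 was at 2.16, 2.48 and 2.61 RPKM in tg/tg against 6.30, 5.54, 3.84 and 5.33 in tg/+, and every tg/tg library lay below every tg/+ library. It was down 2.29-fold (log2 fold change -1.20 ± 0.19, edgeR adjusted p = 0.00014). Sycp3 followed at 14.9, 16.0 and 19.3 RPKM against 27.6, 24.0, 25.9 and 23.5, again without overlap. Its fold was 1.59 (-0.67 ± 0.12, adjusted p = 0.00061), while Chpt1 on the other strand gave -0.26 (adjusted p = 0.19).

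Syce2 read 19.4, 20.1 and 16.2 RPKM against 25.8, 21.8, 23.1 and 24.6 (-0.44 ± 0.10, adjusted p = 0.0062). For Sycp2 the values were 33.1, 28.8 and 31.9 against 37.2, 36.6, 34.7 and 33.3 (-0.26 ± 0.08, adjusted p = 0.025), and for Sycp1 55.2, 56.0 and 52.0 against 66.4, 63.4, 57.2 and 58.6 (-0.25 ± 0.07, adjusted p = 0.02). These 5 genes had no overlap between the genotypes, as had 6.92% of all genes in this direction. The calls of Sycp1 and Sycp2 were lost without tg/+ replicate 1 or tg/tg replicate 2, which left 3. Without tg/+ replicate 2 or tg/tg replicate 3, Stag3 was also called (-0.24 and -0.28), which made 6.

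The other 4 overlapped between genotypes. Stag3 read 47.3, 49.1 and 53.7 RPKM in tg/tg and 57.6, 49.3, 57.5 and 53.8 in tg/+ (-0.20 ± 0.07, adjusted p = 0.076). Smc1b was at 59.0, 55.1 and 54.6 and 66.1, 64.7, 56.9 and 55.6 (-0.19 ± 0.07, adjusted p = 0.097). Syce1 gave a log2 fold change of -0.11 ± 0.09 and Tex12 of -0.02 ± 0.13. The median of the 9 was -0.25, against 0.00 over all genes.

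Around them, none of the 7 other synaptonemal complex and axis genes passed, 7 of 22 recombination genes fell (Prdm9, -1.39, and Mei1, -0.92, led) and 5 of 7 meiotic entry genes fell (Gm1564 and Stra8, both -1.08). Among 14 mitotic or shared cohesin genes, only Rad21 passed, at 0.30, the kleisin in whose place Rec8 acts. The germ cell list (Ddx4, Dazl and 8 others) summed to 449.8 to 540 RPKM in tg/+ and 525.8 to 594.3 in tg/tg, with 3 of 10 genes higher. Markers of undifferentiated spermatogonia summed to 173 to 191 RPKM in tg/+ and 227 to 282 in tg/tg, with 6 of 11 higher (Zbtb16, 0.41, and Gfra1, 0.47). Those of differentiating spermatogonia summed to 134 to 162 and 91.3 to 108, with 3 of 5 lower, Kit (-0.55) and Stra8, which is on the meiotic entry list too, among them. Sertoli cell markers summed to 33.0 to 52.8 and 21.6 to 40.7 RPKM, with 3 of 9 lower. Leydig cell markers summed to 1.75 to 2.59 RPKM in tg/+ and 1.11 to 2.22 in tg/tg, with Insl3 at 0 in all 7 libraries. The part of these shifts in the result was not tested.

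**Figure D3:**
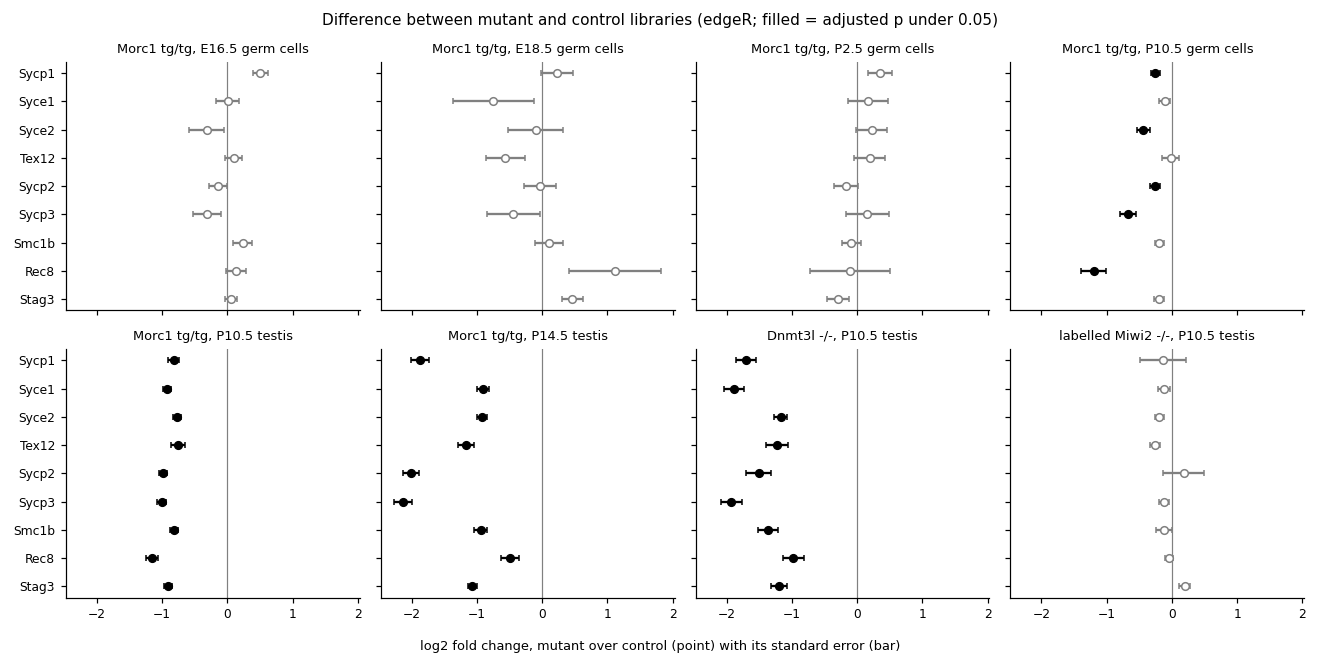
Log2 fold change of mutant over control libraries (point) with its standard error (bar) for the 9 genes in 8 comparisons, filled where the edgeR adjusted p was under 0.05. Open symbols fill the panels of E16.5, E18.5 and P2.5 germ cells and of the libraries labelled Miwi2-/-, 5 filled symbols lie left of 0 at P10.5 in sorted cells, and all 9 lie left in the panels of Morc1 tg/tg and Dnmt3l-/- whole testis. Scaled to germ cell genes, Rec8 was called higher at P14.5 and in Dnmt3l-/-, where 90.9% and 91.3% of all genes were.

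In whole testis at P10.5 all 9 genes fell in Morc1 tg/tg, by 1.69 to 2.22-fold, where 15.3% of 15165 genes tested were called, 6.08% higher and 9.26% lower. The controls were the Morc1 tg/+ and +/+ libraries not labelled preliminary. Rec8 was at 3.18, 3.23 and 3.35 RPKM in tg/tg against 6.71 and 7.41 in tg/+ and 7.84 in +/+. Its log2 fold change was the largest of the 9, -1.15 ± 0.09 (edgeR adjusted p = 2.3e-05). Stag3, the most abundant of the 9 here, read 19.9, 18.2 and 17.1 RPKM against 34.0 and 34.1 in tg/+ and 36.0 in +/+ (-0.90 ± 0.06, adjusted p = 9.0e-06). Smc1b, the remaining cohesin, was at 10.2, 9.43 and 8.97 against 17.7 and 16.9 and 16.45 (-0.82 ± 0.06).

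Both axial genes came down by about as much. Sycp3 read 12.9, 11.7 and 11.1 RPKM in tg/tg against 24.8 and 24.0 in tg/+ and 23.7 in +/+ (-1.01 ± 0.07, adjusted p = 1.8e-05), with Chpt1 at -0.08. Sycp2 was at 5.67, 5.41 and 5.02 against 11.46 and 10.4 and 10.3 (-0.98 ± 0.07). Of the filament and central element genes, Sycp1 read 14.4, 12.8 and 11.7 RPKM against 24.8 and 21.5 and 23.1 (-0.82 ± 0.08), and Syce1 11.4, 11.6 and 11.3 against 20.9 and 22.2 and 22.5 (-0.92 ± 0.06). Syce2 and Tex12 changed least among the 9, by -0.77 ± 0.07 and -0.75 ± 0.11. For each of the 9, all tg/tg libraries lay below all controls, which also held for 20.2% of all genes tested. The preliminary libraries, read apart, had Rec8 at 6.35 (+/+) and 6.98 (tg/+) RPKM and Sycp3 at 16.55 and 19.0, above tg/tg too, and no count of calls changed when they were added with batch as a term.

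In RNA of a whole testis, fewer cells of a type and less RNA per cell cannot be told apart. The germ cell list summed to 376.9 to 386.2 RPKM in the controls and 240.6 to 275.3 in tg/tg, with 7 of 10 genes lower (Ddx4, -0.34, and Dazl, -0.66), and 5 of 5 markers of differentiating spermatogonia were lower (115.5 to 125 RPKM summed in controls, 64.5 to 72.5 in tg/tg). None of 11 markers of undifferentiated spermatogonia passed. Sertoli cell markers were slightly higher in sum (1339 to 1517 against 1269 to 1348 RPKM, 3 of 9 genes higher), as were 4 of 5 macrophage markers (29.1 to 39.3 against 23.2 to 26.2 RPKM). Leydig cell markers summed to 256.5 to 348.5 against 225.8 to 245 RPKM, with 1 of 6 genes called higher. The part of these in the result was not tested. With library sizes set to the summed counts of the 10 germ cell genes in place of TMM, the median of all genes moved up by 0.48, 81.3% of them were called higher and 1.3% lower, and 8 of the 9 genes remained called lower, with a median of -0.43, and Tex12 was at -0.28 (adjusted p = 0.052). This scale does not count germ cells, since their list was itself higher in sorted tg/tg cells of this age (525.8 to 594.3 against 449.8 to 540 RPKM). Of the 8, Syce1, Smc1b and Stag3 were not called in those sorted cells.

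Of the rest of the pathway at P10.5, all 7 other synaptonemal complex and axis genes were lower, led by Hormad1 (-1.04), a HORMA domain protein of unsynapsed axes, and Rad21l (-1.02), the other meiotic kleisin. So were 17 of 22 recombination genes (Prdm9, -1.67, and Dmc1, -1.53, the meiotic recombinase) and 6 of 7 meiotic entry genes (Gm1564, -1.80, and Stra8, -1.46). Of the 14 mitotic or shared cohesin genes 4 were lower, Esco2 at -0.73 and Sgol1 at -0.44, the latter at 0.03 when scaled to germ cell genes.

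At P14.5 the 9 genes fell by unequal amounts, from 1.41-fold to 4.39-fold, and the axial genes and Sycp1 stood apart. Of 15283 genes tested 34.8% were called, 14.8% higher and 20.1% lower. Sycp3 was at 34.9, 33.2 and 28.2 RPKM in tg/tg testis against 137, 119.9 and 168 in tg/+, a 4.39-fold difference (log2 fold change -2.13 ± 0.14, edgeR adjusted p = 5.0e-05). Sycp2 read 14.9, 15.9 and 14.9 against 62.6, 50.9 and 71.1 (-2.01 ± 0.12), and Sycp1 30.0, 25.4 and 25.3 against 98.2, 79.9 and 118 (-1.87 ± 0.14). The tg/tg libraries of these 3 genes lay close together, and the tg/+ libraries lay far above them and spread widely. Chpt1 on the strand opposite Sycp3 was at 0.18 in this comparison.

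The central element and cohesin genes fell by less. Tex12 was at 20.5, 21.7 and 18.6 RPKM in tg/tg against 45.6, 39.8 and 52.7 in tg/+ (-1.17 ± 0.12), Syce1 at 26.9, 25.0 and 23.1 against 45.2, 43.2 and 52.5 (-0.90 ± 0.09) and Syce2 at 28.7, 28.7 and 25.4 against 50.5, 51.4 and 55.7 (-0.92 ± 0.07). Stag3 read 40.1, 36.5 and 35.5 against 80.4, 73.8 and 82.3 (-1.07 ± 0.07) and Smc1b 25.6, 19.9 and 21.3 against 45.1, 38.3 and 45.6 (-0.94 ± 0.10). Rec8, which had changed most at P10.5, changed least here, at 10.1, 8.61 and 6.58 RPKM against 12.8, 10.8 and 12.3 (-0.50 ± 0.14, adjusted p = 0.025). Its call was lost without tg/+ replicate 1 or 3 (adjusted p = 0.077 in each) or tg/tg replicate 2 (adjusted p = 0.052). No gene of the 9 overlapped between genotypes, as was so for 28.3% of all genes in this direction.

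The germ cell list summed to 928.8 to 1201 RPKM in tg/+ and 397.9 to 455.6 in tg/tg (9 of 10 genes lower, Ddx4 at -0.95 and Dazl at -0.85), and 6 of 7 tested markers of pachytene spermatocytes were lower (135 to 286 RPKM summed in tg/+, 28.2 to 31.7 in tg/tg). Their first gene, Piwil1, was at 11.4 to 29.6 RPKM in tg/+ and 1.01 to 1.75 in tg/tg. Markers of differentiating spermatogonia summed to 156.1 to 172.5 RPKM in tg/+ and 112.2 to 137.6 in tg/tg (3 of 5 lower), and those of undifferentiated spermatogonia overlapped, at 83.6 to 94.9 and 93.0 to 108.4 (3 of 11 higher and 1 lower). Sertoli cell markers were higher (8 of 9 genes, 1241 to 1407 RPKM summed against 966 to 994). Their part in the result was not tested.

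Scaled to germ cell genes, the median of all genes at P14.5 rose by 1.09 and that of the 9 genes came to 0.01, where 90.9% of all genes were called higher and 2.65% lower. On that scale Sycp3 (-1.04), Sycp2 (-0.91) and Sycp1 (-0.77) still fell, Rec8 turned to a rise (0.58, adjusted p = 0.00053), and Tex12 (-0.08), Stag3 (0.01), Smc1b (0.14), Syce2 (0.16) and Syce1 (0.18) did not pass. This scaling shifts all genes by nearly the same amount, so that which genes turned was set by the size of their TMM values.

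**Figure D4:**
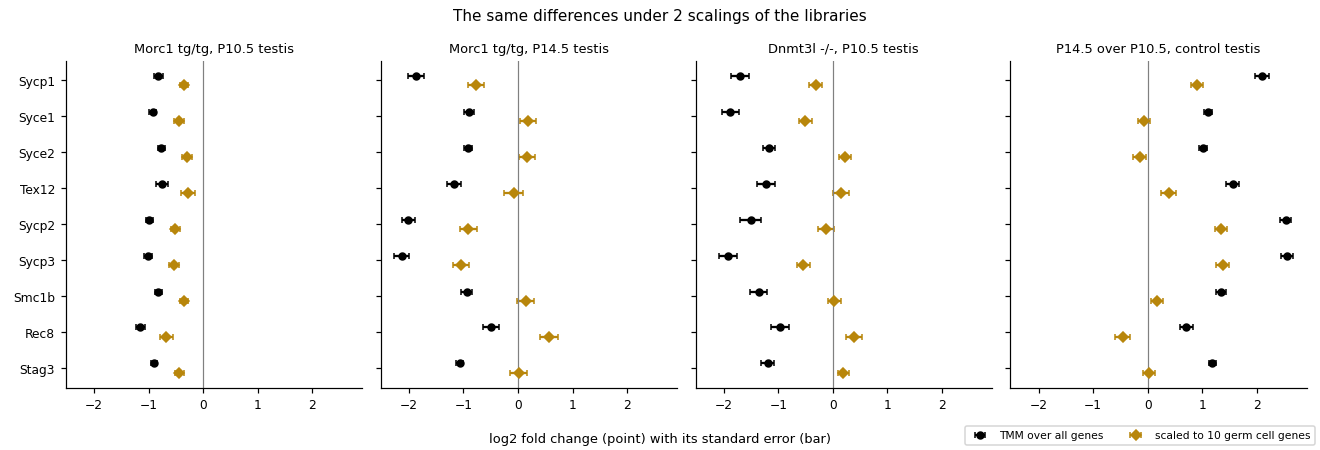
Log2 fold change (point) with its standard error (bar) of each gene in whole testis under TMM scaling (black circles) and with library sizes set to the 10 germ cell genes (gold diamonds), for Morc1 tg/tg at P10.5 and P14.5, Dnmt3l-/- at P10.5, and P14.5 over P10.5 in control testis. With TMM all 9 genes lie below 0 in the mutant panels and above 0 in the age panel. With germ cell scaling Rec8 lies above 0 at P14.5 (0.58) and in Dnmt3l-/- (0.39) and below 0 in the age panel (-0.46), while Sycp3 keeps its side in all 4. On that scale the median of all genes was 1.09 at P14.5, 1.38 in Dnmt3l-/- and -1.15 in the age panel.

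All 7 other synaptonemal complex and axis genes fell at P14.5 (Hormad1, -2.19, and Hormad2, -1.80), as did 19 of 22 recombination genes, led by the crossover helicase Hfm1 (-2.88) and 4930528F23Rik (-2.65), the gene now named Meiob. Of 7 meiotic entry genes 5 fell (Gm1564, -1.35, and Ccnb3, -1.19) and Rara rose (0.28). The mitotic or shared cohesin genes split into 5 falls, with Esco2 at -0.64 and Sgol2 at -0.53, and 1 rise, of Rad21 (0.29). With germ cell scaling Esco2 (0.43) and Sgol2 (0.54) turned higher.

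Between P10.5 and P14.5 control testis gained all 9 transcripts, where 57.6% of 15657 genes tested were called, 29.6% higher and 27.9% lower. The libraries of each age are those of the comparisons above, so these values share samples with them. Sycp3 rose 5.88-fold (log2 fold change 2.555 ± 0.11), Sycp2 5.76-fold (2.53 ± 0.10) and Sycp1 4.27-fold (2.09 ± 0.12). Rec8 rose least, 1.64-fold (0.71 ± 0.12, edgeR adjusted p = 0.00016), and scaled to germ cell genes Rec8 turned to -0.46, Syce2 to -0.15 and Syce1 to -0.07, with Sycp3 (1.37), Sycp2 (1.35), Sycp1 (0.91) and Tex12 (0.38) still called higher, where 4.04% of all genes were called higher and 88.1% lower. The germ cell list summed to 376.9 to 386.2 RPKM in control testis at P10.5 and 928.8 to 1201 at P14.5 (9 of 10 genes higher), markers of pachytene spermatocytes to 23.5 to 27.4 and 135 to 286 (6 of 7 tested higher), and Sertoli cell markers to 1269 to 1348 and 966 to 994 (7 of 9 lower). In tg/tg testis the germ cell list went from 240.6 to 275.3 up to 397.9 to 455.6 RPKM and the pachytene markers from 20.1 to 22.6 up to 28.2 to 31.7. The part of these in the change with age was not tested. In Morc1 tg/tg testis the 9 genes rose too, where 43.8% were called (20.6% higher and 23.3% lower), but within a narrower range, from 0.86 for Syce2 to 1.49 ± 0.11 for Sycp2, with Rec8 at 1.35 ± 0.13. All 9 remained called higher in tg/tg testis with germ cell scaling, as against 3.49% of all genes (72.4% lower).

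The difference between these gains was tested as an interaction, for which 8.22% of genes were called (6.73% lower, 1.49% higher). Sycp3 (-1.14 ± 0.16, edgeR adjusted p = 0.0008), Sycp2 (-1.03 ± 0.14, adjusted p = 0.00069) and Sycp1 (-1.06 ± 0.17, adjusted p = 0.0017) gained less in tg/tg than in controls, and kept this direction scaled to germ cell genes (-0.51, -0.40 and -0.42). Rec8 gained more (0.64 ± 0.18, adjusted p = 0.035), a call lost in 8 of the 12 fits that left out 1 library (adjusted p of 0.052 to 0.086), namely without the +/+ library, tg/+ replicate 3 or any tg/tg library of P10.5, and without tg/+ replicate 2 or tg/tg replicate 1 or 2 of P14.5. With germ cell scaling it stood at 1.25, and Syce1 (0.63), Smc1b (0.49), Syce2 (0.46) and Stag3 (0.44) were then called higher as well, of which Smc1b, Syce2 and Stag3 had been below 0 with TMM. Of all genes 68.5% were called higher and 2.5% lower in that fit. At P10.5 Stag3 led the order of levels in control testis and Rec8 closed it. In P14.5 tg/+ testis Sycp3 came first (142 RPKM), ahead of Sycp1 and Stag3, which overlapped, and in P14.5 tg/tg testis Stag3 was again first (37.4 RPKM). The rank of Sycp3 is subject to its exon overlap with Chpt1.

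**Figure D5:**
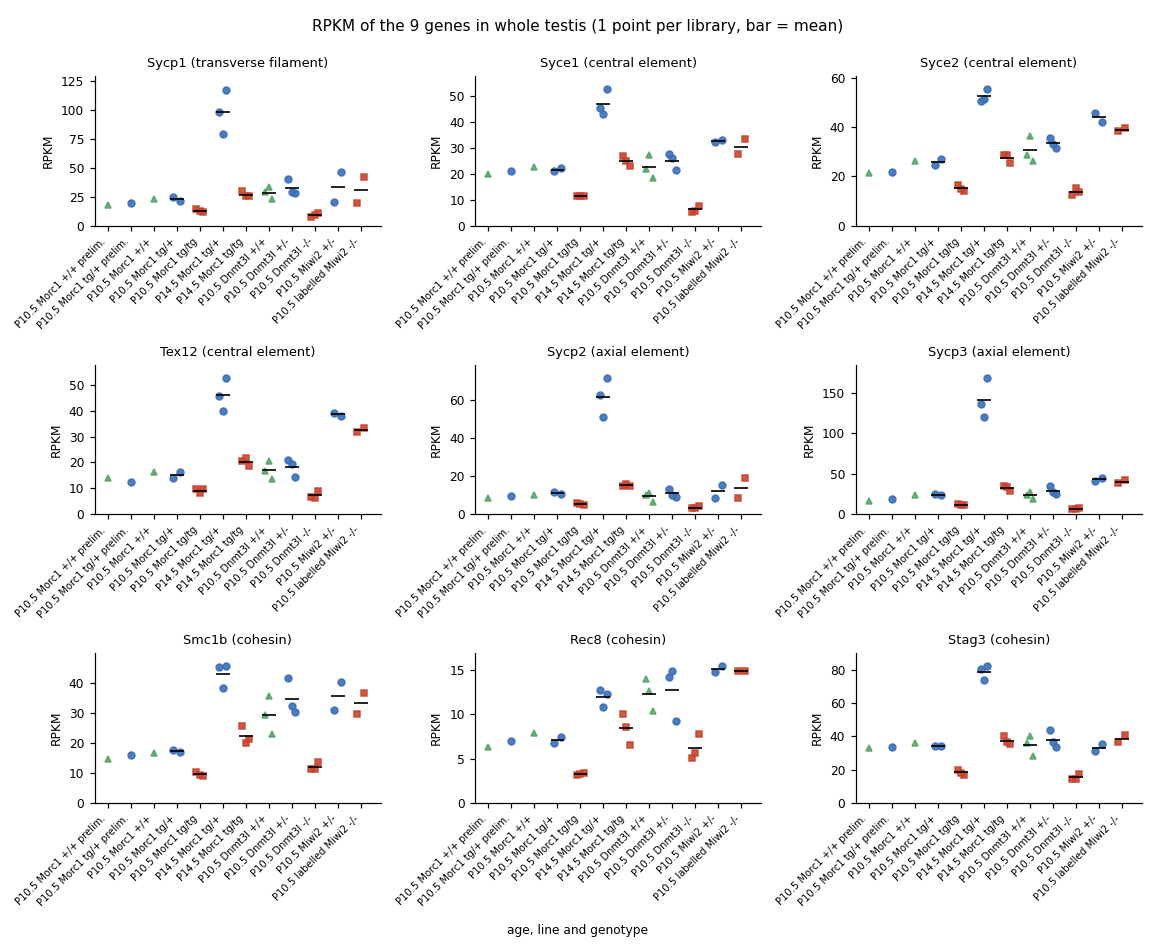
RPKM of each gene in the 27 whole testis libraries by line, age and genotype, with 1 point per library, a bar at the mean and an axis from 0 in each panel. Colours mark +/+ (green), heterozygous (blue) and mutant or labelled mutant (red) libraries. Sycp3, Sycp2 and Sycp1 have a single high group, P14.5 Morc1 tg/+ (Sycp3 at 119.9 to 168 RPKM), and the libraries of the Miwi2 line differ more by replicate than by label for Sycp1 and Sycp2.

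Dnmt3l-/- testis at P10.5 also had less of all 9, by 1.97 to 3.80-fold, where 53.9% of 15665 genes tested were called, 24.9% higher and 29.0% lower. Sycp3 was at 5.94, 6.10 and 8.00 RPKM in Dnmt3l-/- against 34.6, 27.6 and 24.5 in +/- and 23.7, 27.7 and 19.4 in +/+ (log2 fold change -1.93 ± 0.17, edgeR adjusted p = 2.7e-06). Syce1 fell by nearly as much, from 27.5, 26.1 and 21.3 in +/- and 21.8, 27.3 and 18.3 in +/+ to 5.16, 5.81 and 7.67 (-1.88 ± 0.15). Sycp1 read 7.46, 8.99 and 10.7 against 40.1, 29.5 and 27.8 and 29.0, 33.1 and 23.2 (-1.70 ± 0.16). The axial partner Sycp2 was at 3.00, 3.09 and 4.20 against 13.1, 10.2 and 9.19 and 10.3, 11.2 and 6.42 (-1.51 ± 0.19).

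The cohesin genes and the other central element genes were lower by smaller factors. Smc1b read 11.2, 11.1 and 13.8 RPKM in Dnmt3l-/- against 41.6, 32.4 and 30.2 in +/- and 29.4, 35.5 and 22.9 in +/+ (-1.36 ± 0.15), and Stag3 14.4, 14.4 and 17.4 against 43.6, 36.5 and 33.8 and 35.8, 40.5 and 28.2 (-1.20 ± 0.12). Rec8 was at 5.08, 5.69 and 7.74 against 14.2, 14.9 and 9.21 and 14.0, 12.6 and 10.4 (-0.98 ± 0.16, adjusted p = 0.00037), the smallest difference of the 9. Tex12 and Syce2 gave -1.22 ± 0.17 and -1.17 ± 0.10. Every Dnmt3l-/- library lay below every control for each gene, as for 27.7% of all genes. The germ cell list summed to 176.6 to 218.8 RPKM in Dnmt3l-/- and 483.5 to 621.2 in controls (10 of 10 genes lower, Ddx4 at -0.99 and Dazl at -1.53). Markers of differentiating spermatogonia summed to 40.75 to 55.4 against 175.4 to 220.1 RPKM (5 of 5 lower), and those of undifferentiated spermatogonia to 70.4 to 76.6 against 102.2 to 119.5 (5 of 11 lower and 3 higher). Leydig cell markers overlapped (246.3 to 267.2 against 156.1 to 283.9 RPKM), and Sertoli cell markers to 1810 to 1889 against 1025 to 1308 (6 of 9 higher). Their part in the result was not tested.

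Scaled to germ cell genes the median of all genes moved up by 1.38 and that of the 9 to 0.03, where 91.3% of all genes were called higher and 1.98% lower, with Sycp3 (-0.54), Syce1 (-0.51) and Sycp1 (-0.32) still lower, Rec8 turned higher (0.39, adjusted p = 0.018), and Sycp2 (-0.12), Smc1b (0.03), Tex12 (0.16), Stag3 (0.19) and Syce2 (0.22) not past the test. All 7 other synaptonemal complex and axis genes fell with TMM (Hormad2, -1.92, and Hormad1, -1.40), as did 20 of 22 recombination genes (4930528F23Rik, -2.28, and Mei1, -2.20) and 6 of 7 meiotic entry genes (Stra8, -2.49, and Gm1564, -2.40), with Rara higher (0.57). Among the mitotic or shared cohesin genes 7 of 14 fell, with Esco2 at -1.33 and Esco1 at -0.66, and Nipbl, the cohesin loader, rose by 0.22. Germ cell scaling turned Esco2 to 0.06 and Esco1 to 0.73.

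The effects of the Morc1 and Dnmt3l mutations at P10.5 were compared in 1 fit, in which 17.6% of 15902 genes differed, 9.45% with the Morc1 value higher and 8.14% with it lower. Syce1 (0.91 ± 0.19, edgeR adjusted p = 0.0035), Sycp3 (0.87 ± 0.21, adjusted p = 0.009) and Sycp1 (0.83 ± 0.20, adjusted p = 0.011) had fallen less in Morc1 tg/tg, but scaled to germ cell genes none of the 3 was called and Sycp1 was at -0.03. On that scale, which moved the median of all genes by -0.88 and called 79.8% of them lower (1.28% higher), Rec8 (-1.07), Stag3 (-0.62), Syce2 (-0.52) and Smc1b (-0.38) were lower in Morc1 tg/tg than in Dnmt3l-/- relative to their controls. Without Dnmt3l+/+ replicate 3, Syce2 (0.41), Smc1b (0.58) and Sycp2 (0.58) joined the calls with TMM. The lines came from different crosses and have their own controls, so that line and background cannot be told apart.

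In the libraries labelled Miwi2-/- none of the 9 genes was called, where 1.23% of 15997 genes were (0.725% higher and 0.506% lower). At an unadjusted p under 0.05 there were 3 of the 9 and 3229 genes in all, and DESeq2 called 0 of the 9. With a replicate block 6 of the 9 were called, Sycp1, Syce2, Tex12 and Smc1b lower and Sycp2 and Stag3 higher. That fit rests on 2 shared replicate numbers, and its share over all genes is not given here. The log2 fold changes ran from -0.26 ± 0.08 (Tex12, edgeR adjusted p = 0.11) to 0.20 ± 0.09 (Stag3, adjusted p = 0.23). Syce2 was at 38.3 and 39.5 RPKM against 45.9 and 42.1 in Miwi2+/- and Tex12 at 31.9 and 33.1 against 39.0 and 38.1, the only pair of the 9 genes with both libraries labelled Miwi2-/- below both controls, as were 22.4% of all genes. Sycp1 read 19.9 and 42.1 against 20.9 and 46.6, and Sycp2 8.63 and 18.8 against 8.66 and 15.3, each low in replicate 1 of both labels and high in replicate 2. Leaving out single libraries therefore moved Sycp1 to -0.62 or -0.79 and Sycp2 to 0.65, 0.63 or -0.50 in some fits, depending on the library. Each such fit left 1 library in a group. Scaled to germ cell genes, which were slightly higher in sum (586.2 and 590.6 against 539.6 and 540.6 RPKM), 6 of the 9 were called lower, from -0.34 (Rec8) to -0.56 (Tex12), with the median of all genes at -0.28 and 54.8% of them called lower (0.744% higher). Among the pathway lists the 1 gene called was 4930528F23Rik (-0.90).

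None of the 9 genes was called between heterozygous and wild-type testis, with edgeR or DESeq2. Morc1 tg/+ against +/+ at P10.5, fitted with the preliminary library of each genotype included and batch as a term, called 0 of them (0.0131% of all genes, 0.00654% in each direction, 907 genes at an unadjusted p under 0.05), with log2 fold changes of -0.12 to 0.15. Dnmt3l+/- against +/+ called 0 as well (0.00651% of all genes, 287 unadjusted), with 0.05 to 0.29.

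The genes whose profiles were most like the mean profile of the 9 were named by a fixed rule, as a description over libraries that share depth, age and cell composition. Over the 20 sorted libraries and 12870 genes, they were Stra8 (Pearson r of 0.93), D6Mm5e (0.92), Ncapg2 (0.92), a condensin subunit, Uba2 (0.91) and Xpo6 (0.91). The members themselves ranged there from 0.84 (Sycp1) and 0.82 (Smc1b) to -0.38 (Rec8) and -0.47 (Stag3), so that this mean profile is mostly that of Sycp1, Smc1b, Syce1 and Syce2. In the 27 whole testis libraries, over 12557 genes, they were Zcwpw1 (0.99), a histone reader of recombination sites, Boll (0.98), a DAZ family RNA-binding protein, Bub1 (0.98), a spindle checkpoint kinase, Ccne2 (0.98) and Hcn3 (0.98). All 9 members followed the mean in testis, from 0.80 (Rec8) to 0.98 (Syce2). In both sets of libraries each member is itself part of the mean, which raises its r.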

How the data were processed

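RNA-seq was measured in 47 libraries, each from 1 mouse. For each gene the authors deposited a read count, made from reads trimmed to 50 bp, cleared of ribosomal RNA, mapped to mm9 with at most 2 mismatches, kept at 1 location and counted by HTSeq at its default settings. Beside it the authors deposited the RPKM, the count scaled to exon length and to mapped reads. Versions and the aligner of this step are not given in the sources used here. Sorted cells went through the NuGEN Ovation FFPE kit with rRNA depletion and whole testis through TruSeq v2, so the tissues were not tested against each other. 4 small RNA tables were not used.

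Counts were tested over all genes in edgeR 4.0.16 (R 4.3.3) by its quasi-likelihood F-test after TMM scaling and filterByExpr, with Benjamini-Hochberg adjustment and a threshold of 0.05. The script was tested on simulated data first. Alternatives were DESeq2 1.42.0, no filter, a replicate block, other controls, scaling to germ cell genes, and leaving out each library. Same-numbered libraries did not deviate together in every pair, so numbers were not taken as pairs (r of -0.51 to 0.36 across group pairs). Lists held 117 genes (114 matched, 3 by an older symbol), and beside the 9 genes the text names up to 2 risen and 2 fallen genes of each pathway list by size of change and the leading genes of marker lists (Insl3 and Chpt1 were named after their values were seen). Like profiles used log2(RPKM + 1) of genes with a mean RPKM of at least 1. The genes, lists and tests were chosen with earlier results of these data known. Depth was 2413679 to 42137954 counted reads per library, and p-values cover the spread between the mice sampled.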

Additional observations from a re-analysis of the deposited data

Results flagged for a closer look

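The effect of Morc1 tg/tg in whole testis differed between ages in an edgeR interaction test for 4 of the 9 genes, as log2 fold change at P14.5 minus that at P10.5. Of all 15657 genes tested 8.22% were called. The edgeR difference was -1.14 for Sycp3, -1.06 for Sycp1 and -1.03 for Sycp2, a larger fall at P14.5, and 0.64 for Rec8, a smaller one. At P10.5 the effect itself was a fall for each of them. Scaled to germ cell genes, the P14.5 effect on Rec8 was a rise of 0.58, where 90.9% of all genes were called higher. The adjusted p for Rec8 was 0.035, and it was 0.052 to 0.086 in 8 of the 12 fits that left out 1 library.

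The effects of Morc1 tg/tg and Dnmt3l-/- in whole testis at P10.5 differed for 3 of the 9 genes, where 17.6% of all 15902 genes were called. As the Morc1 value minus the Dnmt3l value, Syce1 differed by 0.91, Sycp3 by 0.87 and Sycp1 by 0.83, each with the larger fall in Dnmt3l-/-. Scaled to germ cell genes none of these 3 was called. In the 1 group of 4 libraries, P10.5 sorted Morc1 tg/+ cells, no library of the 9 genes stood apart by Dixon's test.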

How the results depend on the processing

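The counts of genes called out of 9 were 9 in every fit that left out 1 library for Morc1 tg/tg against controls at P10.5, for Dnmt3l-/-, and for P14.5 against P10.5 in control and in tg/tg testis, and 0 in each for P2.5 germ cells and both heterozygote comparisons. The other ranges on leaving out 1 library were 0 to 1 at E16.5 (1 without tg/tg replicate 2) and 0 to 1 at E18.5 (1 without tg/+ replicate 1), 3 to 6 in P10.5 germ cells, 8 to 9 at P14.5, 1 to 2 for the libraries labelled Miwi2-/-, 1 to 5 from E16.5 to E18.5, 3 to 6 from E18.5 to P2.5, 5 to 7 from P2.5 to P10.5, 3 to 4 for the age interaction and 3 to 6 for Morc1 against Dnmt3l. From E16.5 to E18.5 the balance of rises over falls turned with only both stages in the fit (1 called, Stag3 lower), without E16.5 tg/+ replicate 1 (1) and without E18.5 tg/+ replicate 1 (3), and the cause was not tested. Where a group held 2 libraries, leaving out 1 left a single library, with no spread of that group behind the calls. At E16.5, DESeq2 called 1 gene and no filter on low counts 1, Sycp1 in both. DESeq2 also added Stag3 in P10.5 germ cells (6 called), Sycp1 higher from E16.5 to E18.5 (5), Sycp3 lower from E18.5 to P2.5 (5) and Smc1b for Morc1 against Dnmt3l (4), and no other gene of the 9 changed its call. The shares of all genes called in the fits of this paragraph are not given here, so its counts have no background beside them.

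A replicate block gave 1 at E16.5 (Sycp1) and 6 for the libraries labelled Miwi2-/- (Sycp1, Syce2, Tex12 and Smc1b lower, Sycp2 and Stag3 higher), where same-numbered libraries deviated together with r = 0.358 over only 2 numbers. The share of all genes called with the block is not given here, so these counts have no background beside them. Under the block Stag3 lost its call from P2.5 to P10.5 (6 called), and no other count of the 9 changed. No paired analysis was possible for Morc1 tg/+ against +/+ because they share only 1 number. Without replicate 2 of Miwi2+/- Sycp2 was at 0.65, and without replicate 2 of the libraries labelled Miwi2-/- at -0.50.

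Scaling to germ cell genes gave 4 calls at P14.5 (1 higher), 4 in Dnmt3l-/- (1 higher), 6 for the libraries labelled Miwi2-/-, 5 for control age (1 lower), 8 for the age interaction (5 higher) and 4 for Morc1 against Dnmt3l (all lower). The values of the 9 genes that changed sign, given with those of some other cohesin genes, were, at P10.5 in Morc1 tg/tg, Sgol1 0.033; at P14.5, Rec8 0.58, Syce2 0.16, Esco2 0.43, Smc1b 0.14, Syce1 0.18, Sgol2 0.54 and Stag3 0.011; in Dnmt3l-/-, Rec8 0.39, Syce2 0.22, Esco2 0.065, Smc1b 0.028, Esco1 0.73, Tex12 0.16 and Stag3 0.19; for control age, Rec8 -0.46, Syce2 -0.15, Esco2 -0.40, Nipbl -0.64 and Syce1 -0.071; for the age interaction, Syce2 0.46, Smc1b 0.49, Stag3 0.44 and Tex12 0.20; for the libraries labelled Miwi2-/-, Stag3 -0.098 and Sycp2 -0.12; and for Morc1 against Dnmt3l, Syce2 -0.52, Smc1b -0.38, Sycp1 -0.033, Stag3 -0.62, Tex12 -0.44 and Sycp2 -0.38. The germ cell genes themselves fell in Morc1 tg/tg and Dnmt3l-/- testis, and by construction this scaling sets their sum equal. The fewest reads lay behind Rec8 in P2.5 tg/+ replicate 1 (22 reads) and E18.5 tg/+ replicate 2 (26) and behind Syce1 in E18.5 tg/tg replicate 2 (27), and the part of counting error in their spread was not tested.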
